A study of Mus musculus with 6 samples.

Results

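Fndc3b, Zbtb20 and Tent5c are 3 mouse genes, of which Zbtb20 and Tent5c have known roles in plasma cells. The open chromatin at all 3 genes was read here from ATAC-seq peak lists of mouse bone marrow cells. In ATAC-seq a transposase cuts accessible DNA, so that a peak marks a stretch of open chromatin. Peaks of the 6 deposited lists that shared at least 1 bp were merged into 69171 regions, and a region was counted as called in a library when any peak of that library lay in it. The regions described are those whose nearest protein-coding gene interval within 100 kb (RefSeq, mm10) was that of Fndc3b, Zbtb20 or Tent5c. They number 82 of the 69171, with 27 at Fndc3b, 37 at Zbtb20 and 18 at Tent5c, where the median gene with a region had 3. The 3 genes were chosen with their peak calls known, so every count of calls at them is a description and is given without a test.

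The cells were flow-sorted from naive Adig mice on the Balb/c background, and all 3 populations therefore carry the same transgene, a GFP reporter under the regulatory sequences of Aire. The pc-BMACs were gated as AireGFP+B220-CD138+TACI+, the plasma cells as AireGFP-B220-CD138+TACI+ and the immature B cells by the phenotype AireGFP-B220+CD138-TACI-IgM+. The pc-BMACs thus share CD138 and TACI with the plasma cells, 2 surface proteins of antibody-secreting cells, and differ from them in the reporter. Each population had 2 libraries made from 2000 to 15000 cells, and nothing in the labels says that these came from separate animals. The labels state neither age nor sex of the mice.

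The 6 lists held 34070 to 51643 peaks, with median widths of 386.5 to 523 bp, and no read counts. Depth is therefore unknown, and a region without a peak is not shown to be closed. A smaller share of cells with open DNA and less open DNA per cell also cannot be told apart in such sorted pools. The 8 plasma cell markers looked up as a check had 45 and 43 of 66 regions called in the pc-BMACs. They had 46 and 44 in the plasma cells and 46 and 41 in the immature B cells. Over all regions the pc-BMACs called 54.7% and 47.4%, the plasma cells 51.8% and 50.5%, and the immature B cells 74.1% and 64.8%. Every marker count here is to be read beside these shares. The antibody joining chain gene Jchain had 3 and 3 regions in the pc-BMACs, 3 and 3 in the plasma cells, and 1 and 0 in the immature B cells. The 10 B cell markers had 52 and 39 of 101 regions called in the pc-BMACs and 54 and 54 in the plasma cells. They had 80 and 73 in the immature B cells, which also called the largest share of all regions. The 8 T and NK cell markers had 8 and 5 of 18 in the pc-BMACs, 13 and 13 in the plasma cells, and 7 and 3 in the immature B cells, and no region was assigned to Cd8a, Gzma or Ncr1. The 8 myeloid and dendritic cell markers had 23 and 21 of 52 in the pc-BMACs, 25 and 23 in the plasma cells, and 40 and 39 in the immature B cells, and Elane had none. The 6 erythroid markers had 3 and 3 of 8 regions in the pc-BMACs, 7 in plasma cells 1, 2 in plasma cells 2, and 2 and 2 in the immature B cells. Of these, Alas2, Gata1, Hba-a1 and Hbb-bt had peaks in plasma cells 1 alone. The part of other cell types in the results at the 3 genes was not tested.

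The libraries of a population did not call the same regions everywhere. Of 72 member regions called in a pc-BMAC library, 48 were called in both, 19 in pc-BMACs 1 alone of the pair and 5 in pc-BMACs 2 alone. In plasma cells 37 of 44 were called in both, and in immature B cells 18 of 26. The shares of 66.7%, 84.1% and 69.2% compare with 76.7%, 76.3% and 77.0% over all regions. The pc-BMACs 2 list was also the shortest of the 6, with 34070 peaks, and immature B cells 1 was the longest.

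Plasma cells are antibody factories, and Tent5c and Zbtb20 are tied to that work, while Fndc3b is linked here only through a paralogue. Tent5c, earlier called Fam46c, encodes a cytoplasmic poly(A) polymerase that lengthens the tails of mRNAs translated at the endoplasmic reticulum, immunoglobulin mRNAs among them, and the human gene is recurrently lost or mutated in multiple myeloma. Fndc3b encodes a fibronectin type III domain protein anchored in the endoplasmic reticulum membrane, and its paralogue FNDC3A is a binding partner of TENT5C in human myeloma cells. Zbtb20 encodes a BTB zinc finger repressor that mouse plasma cells need for lasting antibody responses after some adjuvants.

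The start sites are shown first, because here the genes differed. RefSeq (GRCm38.p6, the assembly that mm10 names) lists 1 promoter window of 300 bp for each of the 3 genes, with 250 bp before and 50 bp after the start site. All 300 bp of the Fndc3b window (chr3:27710403-27710702, minus strand) and of the Tent5c window (chr3:100489143-100489442, minus strand) lay under peaks in all 6 lists. The Zbtb20 window (chr16:43247034-43247333, plus strand) held no peak in any list, and the nearest region lay 56.4 kb away. The Zbtb20 gene interval begins far upstream of this start site, and its 5′ end lay under a peak in every list. Capitals mark matches to the motifs named after the sequences.
Fndc3b: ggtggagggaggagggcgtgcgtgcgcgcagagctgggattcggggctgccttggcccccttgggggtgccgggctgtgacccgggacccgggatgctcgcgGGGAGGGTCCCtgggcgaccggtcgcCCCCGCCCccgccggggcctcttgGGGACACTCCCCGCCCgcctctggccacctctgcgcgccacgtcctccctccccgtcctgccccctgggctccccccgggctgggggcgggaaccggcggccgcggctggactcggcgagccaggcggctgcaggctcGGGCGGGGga
Tent5c: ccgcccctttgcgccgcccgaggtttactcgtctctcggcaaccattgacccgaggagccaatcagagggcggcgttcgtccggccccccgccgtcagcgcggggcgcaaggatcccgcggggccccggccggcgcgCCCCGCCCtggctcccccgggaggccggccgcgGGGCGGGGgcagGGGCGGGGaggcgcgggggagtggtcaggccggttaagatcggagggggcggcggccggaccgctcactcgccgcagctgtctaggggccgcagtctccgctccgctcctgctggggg
Zbtb20: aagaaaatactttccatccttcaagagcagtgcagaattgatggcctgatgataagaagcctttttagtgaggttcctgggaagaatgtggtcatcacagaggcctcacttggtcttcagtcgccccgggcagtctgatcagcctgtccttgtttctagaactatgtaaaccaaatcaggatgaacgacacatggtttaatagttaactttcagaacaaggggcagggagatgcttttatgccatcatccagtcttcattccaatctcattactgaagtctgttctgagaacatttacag
The CpG dinucleotide, typical of promoters open in many cell types, occurred 33 times in the Fndc3b window, 42 times in the Tent5c window and 3 times in the Zbtb20 window. The median of 32851 windows of this length was 7. The GC content was 79.7%, 78.0% and 43.3% in the same order, against a median of 52.7%. Of 12 motifs searched on both strands, 2 matched. The KLF/SP motif GGGCGGGG matched at 3 places in the Fndc3b window and 3 in the Tent5c window, and 17.6% of all windows hold it. The NF-kB motif (GGGA, 4 bases of any kind, CC) matched at bases 103, 104, 153 and 154 of the Fndc3b window, counted from its 5′ end, and 20.7% of all windows hold it. Each pair of these matches is shifted by 1 base and overlaps on opposite strands, and the second pair overlaps the KLF/SP match at base 161. No match was found in these windows for the AP-1 motif TGANTCA (7.81% of all windows), the composite ETS-IRF motif (GGAA, 2 bases of any kind, GAAA; 2.72%), the interferon response motif (GAAA, 2 bases of any kind, GAAA; 3.44%), the PRDM1 core, which is the same motif with G and T as the free bases (0.253%), the octamer ATGCAAAT (1.74%), the E-box CAGGTG (20.2%), the ETS motif AGGAAGTG (4.07%), the unfolded protein response element TGACGTGG (0.676%), the CRE TGACGTCA (1.79%) or the MEF2 motif (CTA, 4 bases of any kind, TAG; 3.69%). A match is a match of letters and not a bound site.

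All 3 genes had the most called regions in pc-BMACs and the fewest in immature B cells. Fndc3b had 25 and 18 of its 27 regions called by pc-BMACs 1 and 2, 13 and 12 by plasma cells 1 and 2, and 5 and 6 by immature B cells 1 and 2. Zbtb20 had 27 and 20 of 37 in the pc-BMACs, 15 and 15 in the plasma cells, and 14 and 10 in the immature B cells. Tent5c had 15 and 15 of 18 in the pc-BMACs, 14 and 12 in the plasma cells, and 5 and 4 in the immature B cells. The counts of the 3 populations did not overlap at any of the 3 genes, which were chosen on these calls. In the same order, without overlap, stood 0.764% of the 15192 genes with a region and 2.31% of the 2254 genes with at least 8. Over all regions the immature B cells called the most, 74.1% and 64.8%. The pc-BMACs, with 54.7% and 47.4%, and the plasma cells, with 51.8% and 50.5%, overlapped. The steps were unequal. At Tent5c plasma cells (13.0 ± 1.41 regions, SD, n = 2) lay close to pc-BMACs (15.0 ± 0), at Zbtb20 plasma cells (15.0 ± 0) lay close to immature B cells (12 ± 2.83), and at Fndc3b they lay between (21.5 ± 4.95 in the pc-BMACs, 12.5 ± 0.707 in the plasma cells, 5.5 ± 0.707 in the immature B cells). With 2 libraries per population an exact permutation test over libraries cannot go below a two-sided p of 0.333, so none is given.

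**Figure D1:**
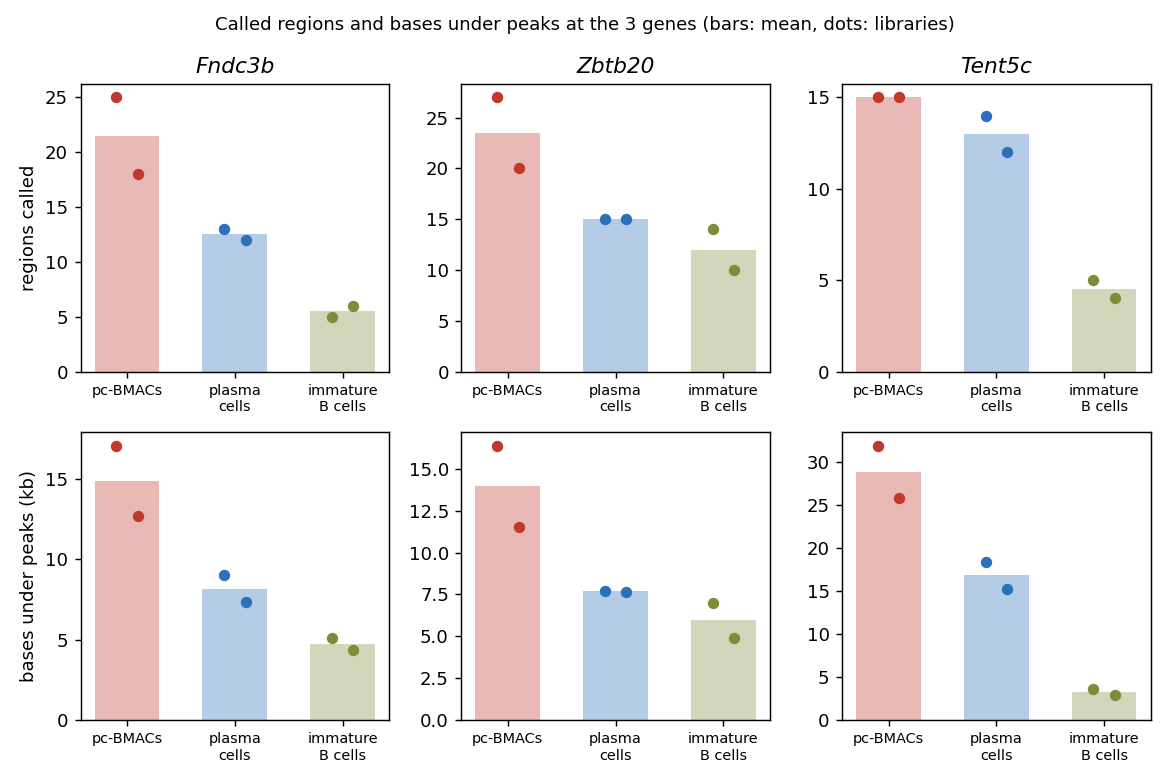
Number of regions called (top) and bases under peaks in kb (bottom) at Fndc3b, Zbtb20 and Tent5c, with bars for the mean and dots for the 2 libraries of each population. The pc-BMACs stand highest at each gene, and at Tent5c 31.9 and 25.8 kb lay under peaks in the pc-BMACs, 18.4 and 15.2 kb in the plasma cells, and 3.60 and 2.94 kb in the immature B cells.

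The bases under peaks gave the same order. Fndc3b had 17.1 and 12.7 kb in the pc-BMACs, 9.0 and 7.35 kb in the plasma cells, and 5.1 and 4.32 kb in the immature B cells. Zbtb20 had 16.4 and 11.5 kb in the pc-BMACs, 7.73 and 7.63 kb in the plasma cells, and 6.98 and 4.9 kb in the immature B cells. Set against the total length of each list, Tent5c took 1110 and 1100 bp per Mb of peaks in the pc-BMACs, 841 and 705 bp in the plasma cells, and 97.7 and 113 bp in the immature B cells. Fndc3b took 594 and 545 bp per Mb in the pc-BMACs, 410 and 341 bp in the plasma cells, and 138 and 166 bp in the immature B cells. Zbtb20 took 572 and 492 bp per Mb in the pc-BMACs, 353 and 354 bp in the plasma cells, and 189 and 188 bp in the immature B cells. Per Mb of peaks, each gene thus kept the order of the populations. The share of all genes in this order, by bases or per Mb, is not given. The genes were chosen on these calls, so the order is a description. Whether list length or depth plays a part in it was not tested.

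The lists that called each region fell into a few patterns. Of the 82 regions, 16 (19.5%) were called in both pc-BMAC and both plasma cell libraries and in neither immature B cell library, a pattern of 3.66% of all regions. Another 13 (15.9%) were called in all 6 libraries, against 29.6% of all regions. Both pc-BMAC libraries alone called 12 (14.6%), against 4.42% of all regions. Both immature B cell libraries alone called 3 (3.66%), all at Zbtb20, against 14.3% of all regions. Both plasma cell libraries alone called 1 (1.22%), at Fndc3b, which is near the 1.5% of all regions. No region joined the plasma cell pair to the immature B cell pair without pc-BMACs, or the pc-BMAC pair to the immature B cell pair without plasma cells, where 4.88% and 1.06% of all regions did. A single library called 23 regions, of which 17 (20.7%) were in a pc-BMAC list, 5 (6.1%) in immature B cells 1 and 1 (1.22%) in plasma cells 2. Over all regions the shares called in a single library were 5.83% for pc-BMACs, 13.2% for immature B cells and 3.22% for plasma cells. The remaining 14 (17.1%) split the libraries of at least 1 population, against 18.3% of all regions. When peaks of a library had to span at least 50% of a region for a call, pc-BMACs alone held 18 regions, pc-BMACs and plasma cells together 8 and all 6 libraries 6, so the pattern of pc-BMACs alone became the most frequent of these. The genes were chosen on these calls, so nothing is read from the distance to the background.

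Tent5c is short, at 21.1 kb (chr3:100468057-100489192, Entrez gene 74645), and much of it lay under peaks in pc-BMACs and a smaller part in plasma cells. Peaks covered 68.0% and 49.1% of the gene interval in the pc-BMACs, 28.4% and 21.5% in the plasma cells, and 4.43% and 4.31% in the immature B cells. Among the 10038 protein-coding genes of at least 20 kb, Tent5c stood at rank 1 in both pc-BMAC libraries, at rank 3 and 9 in plasma cells 1 and 2, and at rank 2179 and 1389 in immature B cells 1 and 2. The median gene of that length was covered to 1.15% to 1.90% in the 6 libraries. The rank depended on the length limit, chosen after the values were seen, and over the 13959 genes of at least 10 kb it was 2 and 6 in the pc-BMACs and 11 and 25 in the plasma cells.

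**Figure D2:**
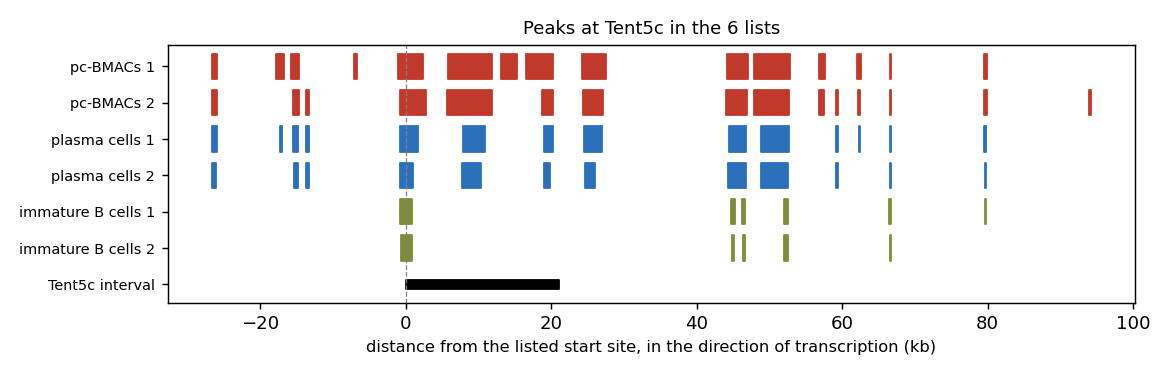
Peaks of the 6 lists at Tent5c (coloured blocks, narrow ones drawn at a minimum width) by distance in kb from the start site in the direction of transcription, with the gene interval in black and the start site dashed. Wide peaks lie in the gene and beyond its end in pc-BMACs and plasma cells, with gaps between them. They cover 68.0% and 49.1% of the gene in the pc-BMACs and 28.4% and 21.5% in the plasma cells. Immature B cells have the start site and small parts of the downstream regions.

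The widest Tent5c region lay inside the gene and was absent from the immature B cell lists. At chr3:100477361-100483447, centred 8.79 kb after the start site, peaks spanned 6030 and 6087 bp in the pc-BMACs and 3010 and 2578 bp in the plasma cells, and no peak was called in immature B cells. Of all 69171 regions, 66 (0.0954%) were at least this wide, and the median region was 428 bp wide. A second region in the gene, chr3:100468871-100472681, had its near edge 814 bp from the end of the gene and spanned 3783 and 1551 bp in the pc-BMACs and 1294 and 897 bp in the plasma cells, with none in immature B cells. Between them, chr3:100473890-100476113 was called over 2224 bp in pc-BMACs 1 alone. The start site region, chr3:100486445-100490259, was called in every list, over 3400 and 3546 bp in the pc-BMACs, 2451 and 1847 bp in the plasma cells, and 1658 and 1603 bp in the immature B cells. In all these regions the pc-BMAC peaks were the widest and the immature B cell peaks, where present, the narrowest.

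Downstream of Tent5c lay 9 regions, at 3.10 to 72.8 kb from the gene end. The nearest, chr3:100461683-100464959, spanned 3277 and 2637 bp in the pc-BMACs and 2507 and 1338 bp in the plasma cells and was not called in immature B cells. Next came a pair of regions called in all 6 lists. At chr3:100436410-100441345, peaks spanned 4936 and 4813 bp in the pc-BMACs, 3862 and 3801 bp in the plasma cells, and 654 and 552 bp in the immature B cells. At chr3:100442182-100445093, they spanned 2835 and 2885 bp in the pc-BMACs, 2377 and 2479 bp in the plasma cells, and 903 and 639 bp in the immature B cells. A count of called regions treats both as shared, although the populations do not overlap in width.

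The other downstream regions were narrower. Only chr3:100431487-100432416 was called in both pc-BMAC lists and in no other, over 930 and 707 bp. The region chr3:100422446-100422690 was called in all 6 lists over 150 to 195 bp, and chr3:100409216-100409700 in all but immature B cells 2. Of the rest, chr3:100426645-100427128 was called in both pc-BMAC lists and plasma cells 1, chr3:100429704-100430083 in pc-BMACs 2 and both plasma cell lists, and chr3:100394969-100395217 in pc-BMACs 2 alone. Upstream lay 5 regions, none of them called in immature B cells. The regions chr3:100503843-100504981 and chr3:100515123-100515833 were called in both pc-BMAC and both plasma cell lists. Of the other upstream regions, chr3:100502403-100502951 was called in pc-BMACs 2 and both plasma cell lists, chr3:100505931-100506992 in pc-BMACs 1 and plasma cells 1, and chr3:100495811-100496270 in pc-BMACs 1 alone.

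The edges of the Tent5c set are set by distance. Its furthest member lies 72.8 kb from the gene, called in pc-BMACs 2 alone. The next region outward, chr3:100364761-100365959, lies 102 kb away and was called in both pc-BMAC and both plasma cell lists, and on the other side chr3:100530593-100531362, with the same calls, lies nearer to Man1a2. Nearest distance does not show which gene a region acts on.

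Fndc3b is 295 kb long (chr3:27416135-27711307, Entrez gene 72007), and all 27 of its regions overlapped the gene interval. Exons are not given in the annotation used, so a region is placed only by its distance from the start site. All 6 lists called 4 regions. The start site region, chr3:27709769-27711737, spanned 1969 and 1607 bp in the pc-BMACs, 1521 and 1448 bp in the plasma cells, and 1701 and 1433 bp in the immature B cells, so that here the populations overlapped. The widest region, chr3:27461123-27463730, 248 kb after the start site, spanned 2608 and 2516 bp in the pc-BMACs, 1947 and 1749 bp in the plasma cells, and 1814 and 1529 bp in the immature B cells. At chr3:27641264-27641959 they spanned 654 and 650 bp in the pc-BMACs, 297 and 150 bp in the plasma cells, and 268 and 199 bp in the immature B cells, so that pc-BMACs stood apart and the other populations overlapped.

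**Figure D3:**
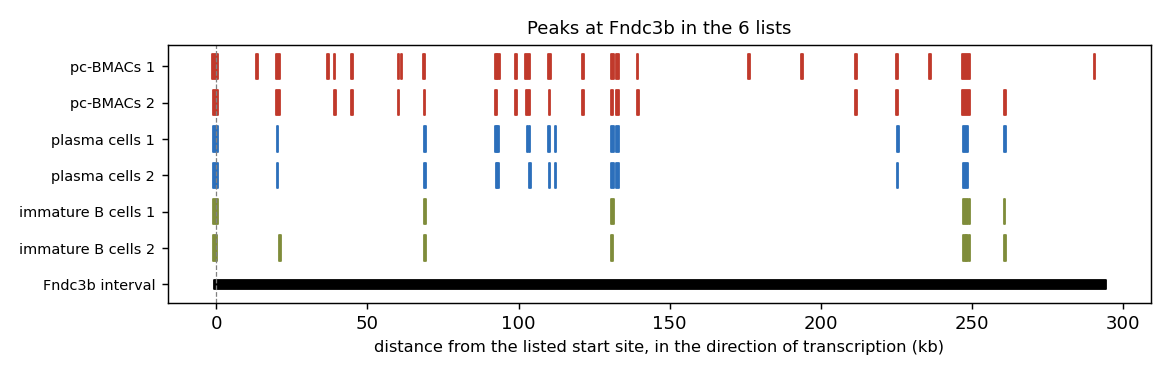
Peaks of the 6 lists at Fndc3b (coloured blocks, narrow ones drawn at a minimum width) by distance in kb from the start site in the direction of transcription, with the gene interval in black and the start site dashed. The 5 regions shared by pc-BMACs and plasma cells lie 92.5 to 225 kb into the gene, and the 7 regions called in both pc-BMAC lists alone lie 39.0 to 211 kb into it.

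Regions that pc-BMACs and plasma cells shared without immature B cells numbered 5 at Fndc3b, of which 4 were centred 92.5 to 133 kb after the start site. The widest, chr3:27606512-27608204, spanned 1647 and 1447 bp in the pc-BMACs and 799 and 369 bp in the plasma cells. At chr3:27577233-27578256 peaks spanned 991 and 1019 bp in the pc-BMACs and 836 and 741 bp in the plasma cells, and only 629 bp away chr3:27578886-27579993 was called in all 6 lists. The others were chr3:27484746-27485552 (807 and 742 bp in the pc-BMACs, 373 and 519 bp in the plasma cells), chr3:27599863-27600669 (807 and 633 bp, 518 and 340 bp) and chr3:27617653-27618215 (563 and 360 bp, 476 and 281 bp). In 4 of the 5 both pc-BMAC peaks were wider than both plasma cell peaks, the exception being the last.

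Both pc-BMAC libraries alone called 7 Fndc3b regions, all of them narrower than 650 bp. The widest was chr3:27611012-27611657, with 646 and 314 bp, followed by chr3:27665306-27665772 with 467 and 355 bp. At chr3:27570967-27571341 peaks spanned 375 and 238 bp, at chr3:27589001-27589355 355 and 274 bp, and at chr3:27650211-27650499 242 and 234 bp. The narrowest were chr3:27671295-27671586 (224 and 150 bp) and chr3:27498836-27499098 (190 and 150 bp), where 150 bp is the smallest width in any list. Another 7 regions of 150 to 267 bp were called in pc-BMACs 1 alone. The reverse pattern occurred once, at chr3:27598184-27598539, with 272 and 354 bp in the plasma cells and no peak in pc-BMACs or immature B cells. In the remaining 3 regions the libraries of a population split. They were chr3:27689470-27690653, called in all but immature B cells 1 over 1184 and 1080 bp in the pc-BMACs, 520 and 345 bp in the plasma cells and 150 bp in immature B cells 2, chr3:27616464-27617536, called in pc-BMACs 1 and both plasma cell lists, and chr3:27449388-27449833, called in both immature B cell lists and 1 list of each other population.

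Outside Fndc3b the nearest region on the side of its 3′ end lay 70.2 kb away, was called in all 6 lists and was assigned to Tnfsf10. On the side of its start site the nearest lay 148 kb away, nearer to Tmem212, and was called in both pc-BMAC lists.

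Zbtb20 is 759 kb long (chr16:42875689-43634392, Entrez gene 56490), and its 37 regions were not spread evenly over it. The 5 regions before the listed start site were called in immature B cells 1 and, for 2 of them, in every list. The first of these, chr16:42874620-42876893, covers the 5′ end of the gene interval and spanned 1955 and 1962 bp in the pc-BMACs, 1991 and 2133 bp in the plasma cells, and 2274 and 1724 bp in the immature B cells. The populations overlapped there, as they did at the Fndc3b start site region. The other region of these 5 called in every list, chr16:42907214-42907799, spanned 524 and 226 bp in the pc-BMACs, 326 and 397 bp in the plasma cells, and 586 and 403 bp in the immature B cells. Between chr16:42910359 and chr16:43335327 a single region was called, in immature B cells 1. The other 32 regions lay 88.3 to 378 kb after the listed start site, and 25 and 18 of them were called in the pc-BMACs, 13 and 13 in the plasma cells, and 9 and 8 in the immature B cells.

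**Figure D4:**
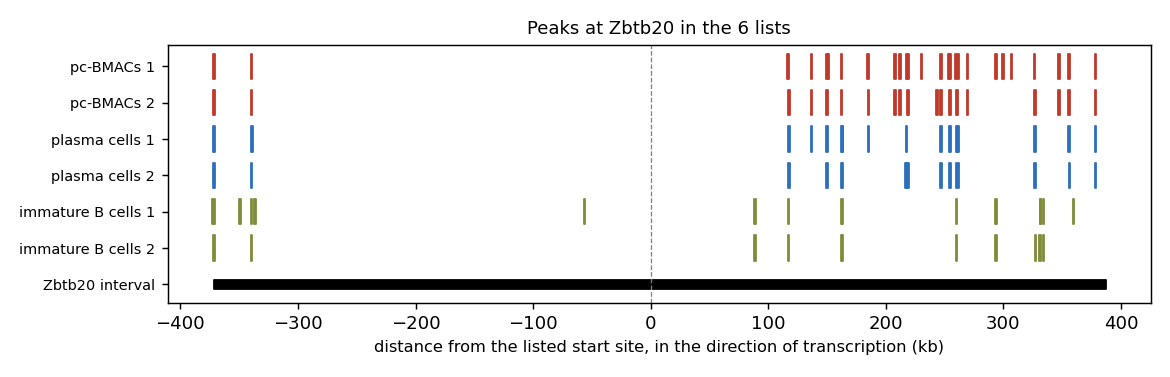
Peaks of the 6 lists at Zbtb20 (coloured blocks, narrow ones drawn at a minimum width) by distance in kb from the listed start site in the direction of transcription, with the gene interval in black and the start site dashed. No peak lies at the listed start site, and the 32 regions after it lie 88.3 to 378 kb away, with pc-BMAC regions the most numerous.

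In this downstream part 6 regions were shared by both pc-BMAC and both plasma cell libraries without immature B cells. The widest, chr16:43507799-43509036, spanned 1201 and 1134 bp in the pc-BMACs and 824 and 645 bp in the plasma cells. It lies 420 bp from chr16:43506051-43507378, which was called in all 6 lists over 1245 and 550 bp in the pc-BMACs, 479 and 496 bp in the plasma cells, and 353 and 239 bp in the immature B cells. The other regions called in all 6 lists here were chr16:43409044-43410315, with 1272 and 1223 bp in the pc-BMACs, 833 and 995 bp in the plasma cells, and 864 and 695 bp in the immature B cells, and chr16:43363974-43364538, with 479 and 298 bp in the pc-BMACs, 150 and 204 bp in the plasma cells, and 463 and 440 bp in the immature B cells. The rest of the 6 shared regions were chr16:43396611-43397254, chr16:43493529-43494140, chr16:43501163-43501663, chr16:43602504-43602994 and chr16:43624968-43625646, with 368 to 644 bp in the pc-BMACs and 189 to 405 bp in the plasma cells.

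Both pc-BMAC libraries alone called 4 Zbtb20 regions. They were chr16:43454445-43454886 (389 and 442 bp), chr16:43458667-43459620 (954 and 316 bp), chr16:43515996-43516409 (414 and 187 bp) and chr16:43593978-43594394 (414 and 308 bp). Zbtb20 was also the member with regions of immature B cells alone. These were chr16:43335327-43335916 (557 and 542 bp), chr16:43577920-43578250 (266 and 293 bp) and chr16:43580535-43580771 (220 and 150 bp). The last pair is centred 331 and 333 kb after the listed start site, with a further region of immature B cells 1 alone between them. The split regions numbered 6, among them chr16:43573247-43574363, called over 1117 and 948 bp in the pc-BMACs, 902 and 856 bp in the plasma cells, and 227 bp in immature B cells 2 alone of its pair. Both immature B cell lists, but no plasma cell list, also called chr16:43540183-43540397, as did pc-BMACs 1. The other 4 were called in both pc-BMAC lists with 1 plasma cell list, or in pc-BMACs 1 with both plasma cell lists, and in no immature B cell list. The 13 regions called in a single library were 150 to 518 bp wide, with 7 in a pc-BMAC list, 5 in immature B cells 1 and 1 in plasma cells 2.

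Set between populations, the counts were as follows. Between pc-BMACs and plasma cells, 12 of 74 member regions (16.2%) had a peak in each pc-BMAC library and in no plasma cell library, where 8.42% of all regions did, and 1 (1.35%) showed the opposite pattern, where 9.46% of all regions did. The 12 comprised 7 of 27 at Fndc3b (25.9%), 4 of 29 at Zbtb20 (13.8%) and 1 of 18 at Tent5c (5.56%). The share at Tent5c was thus below that over all regions. Without pc-BMACs 2 the 12 became 28, and without pc-BMACs 1 they became 14. The single plasma cell region became 3 without pc-BMACs 1, 3 without pc-BMACs 2 and 2 without plasma cells 1.

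Between pc-BMACs and immature B cells, 32 of 80 regions (40.0%) were called in pc-BMACs only, against 10.3% of all regions. They comprised 12 at Fndc3b, 13 at Zbtb20 and 7 at Tent5c. The opposite pattern held at 3 regions (3.75%), all at Zbtb20, against 24.1% of all regions. Without pc-BMACs 2 the 32 became 50, and without immature B cells 2 the 3 became 8.

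Between plasma cells and immature B cells, 21 of 53 regions (39.6%) were called in plasma cells only, against 6.35% of all regions, with 7 at each of the 3 genes. The even split did not hold when peaks had to span at least 50% of a region, with 2 at Fndc3b, 4 at Zbtb20 and 6 at Tent5c, or when regions had to lie within 10 kb of the gene, with 3 at Tent5c and 7 at each of the others. Immature B cells alone had 4 (7.55%), all at Zbtb20, against 19.0% of all regions, and they became 9 without immature B cells 2. Zbtb20 had the narrowest balance, 7 regions against 4, and it turned to immature B cells, with a net of -1, against 3 as reported, without immature B cells 2 and under a rule that asked for peaks over at least 50% of a region. The comparisons of pc-BMACs and of plasma cells with immature B cells share the immature B cell libraries.

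Most regions called in plasma cells at these genes were also called in pc-BMACs. Of the 37 regions called in both plasma cell libraries, 32 (86.5%) were called in both pc-BMAC libraries, 4 in 1 of them and 1 in neither. By gene this was 10 of 12 at Fndc3b, 12 of 13 at Zbtb20 and 10 of 12 at Tent5c. Over all regions 77.7% of those called in both plasma cell libraries were called in both pc-BMAC libraries. In the other direction, 32 of the 48 regions called in both pc-BMAC libraries (66.7%) were called in both plasma cell libraries, against 77.7% over all regions.

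Shared regions differed in width as well. At the 32 member regions called in all 4 libraries of pc-BMACs and plasma cells, the ratio of mean bases under peaks in pc-BMACs to those in plasma cells had a median of 1.60 and ran from 0.95 to 2.92. Over all 23804 such regions the median was 1.16, and the pc-BMAC lists had wider peaks in general (medians of 523 and 489 bp, against 404 and 414 bp in the plasma cells). At 27 of the 32 regions both pc-BMAC libraries exceeded both plasma cell libraries, where 51.9% of all such regions did, and at 1 the plasma cells did, where 8.81% did. By gene the median ratio was 1.53 at Fndc3b, 1.63 at Zbtb20 and 1.58 at Tent5c. Peak width was measured in the libraries that chose the genes, and depth is unknown here, so these values are a description.

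**Figure D5:**
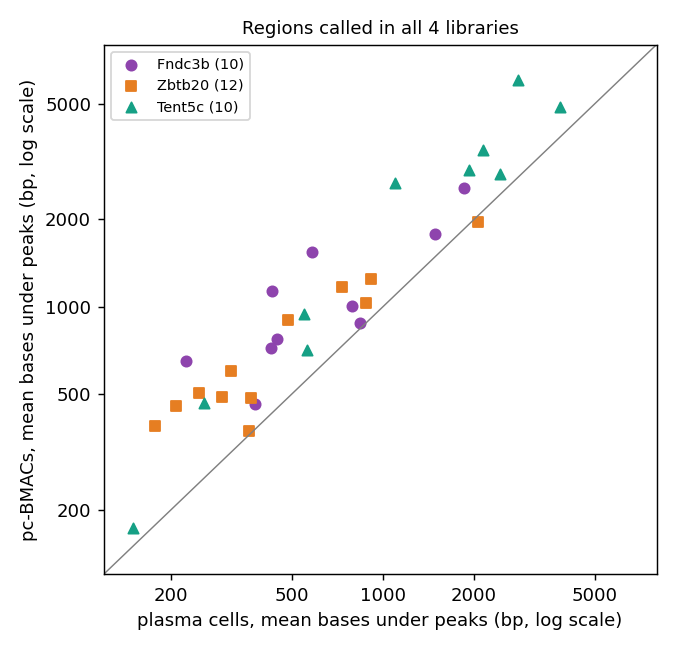
Mean bases under peaks in pc-BMACs (vertical) and in plasma cells (horizontal), in bp on log scales, for the 32 regions of the 3 genes called in all 4 libraries, with the line of equality in grey. All but 1 point lie above the line, the ratio running from 0.95 to 2.92 with a median of 1.60.

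Against immature B cells, pc-BMAC peaks were wider in both libraries at some shared regions of each gene. Plasma cell peaks were wider in both libraries at 3 Tent5c regions and 1 Zbtb20 region, and narrower at 2 Zbtb20 regions. At the 4 Tent5c regions shared by all libraries the median ratio was 2.92 for pc-BMACs over immature B cells and 2.23 for plasma cells over immature B cells, and 3 of the 4 were wider in both libraries of either population than in immature B cells. The highest ratio, 8.08 for pc-BMACs and 6.35 for plasma cells, belonged to the downstream region chr3:100436410-100441345. At Fndc3b the pc-BMAC ratio had a median of 1.34 (1.14 to 2.79), and 2 of 4 regions were wider in both pc-BMAC libraries. Its plasma cell ratio had a median of 1.03 (0.947 to 1.11) and no region was wider in both libraries of one population than in both of the other. At Zbtb20 the median was 0.98 (0.758 to 3.03) for pc-BMACs, with 2 of 5 regions wider in both of their libraries, and 1.03 (0.392 to 1.65) for plasma cells, with 1 of 5. Over all shared regions the medians were 0.937 and 0.776. Wider peaks in both libraries were found at 7 of 13 member regions for pc-BMACs over immature B cells (17.6% of all such regions) and at 4 of 13 for plasma cells over immature B cells (6.06%). Immature B cells had wider peaks in both libraries at 0 of 13 against pc-BMACs (30.5% of all such regions) and at 2 of 13 against plasma cells (58.4%), both of these at Zbtb20.

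Over a list of other plasma cell genes the region totals leaned the same way, while the median gene showed no lean. The list was chosen with earlier results of these data known, so its counts are a description. The 8 plasma cell markers, all in this list, had equal or nearly equal numbers. These were 5 and 5 for pc-BMACs and plasma cells, 12 and 12 for pc-BMACs and immature B cells, and 7 and 8 for plasma cells and immature B cells. All 36 genes of a plasma cell list that leaves out the 3 members had a region, 308 in all. Between pc-BMACs and plasma cells, pc-BMAC-only regions made up 29 of 261 (11.1%), against 17 that were plasma-cell-only (6.51%). Over all regions these shares were 8.42% and 9.46%. Of the 29, Creb3l2 held 6, Prdm1 4, and Ell2 and Atf6 3 each. Pc-BMAC-only regions prevailed at 10 genes, plasma-cell-only regions at 8, and 18 had equal numbers, with a median net of 0. Over all 15192 genes with a region the median net was also 0, and the shares were 14.3% and 15.5%. Between pc-BMACs and immature B cells, 58 of 297 regions (19.5%) were pc-BMAC-only and 43 (14.5%) immature-B-only, against 10.3% and 24.1% of all regions. Between plasma cells and immature B cells, 38 of 252 (15.1%) were plasma-cell-only and 31 (12.3%) immature-B-only, against 6.35% and 19.0% of all regions. In each of these comparisons regions of the antibody-secreting population prevailed at 13 of the 36 genes, immature-B-only regions at 10, and the median net was 0. Over all genes the shares were 14.1% and 36.5% for pc-BMACs against immature B cells, and 9.51% and 34.0% for plasma cells against immature B cells.

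Single genes of the list varied. Named are those with the most group-only regions in a comparison, together with Prdm1, Xbp1, Irf4, Sdc1 and Tnfrsf13b. Creb3l2, whose product is a membrane-held factor cut free by secretory stress, had 14 and 12 of 16 regions called in the pc-BMACs, 5 and 4 in the plasma cells, and 4 and 4 in the immature B cells. Its pc-BMAC-only regions numbered 6 against plasma cells and 7 against immature B cells, with none the other way in either comparison. Ell2, an elongation factor that favours secreted antibody mRNA, had 3 pc-BMAC-only regions against plasma cells and 7 against immature B cells, likewise with none the other way. Atf6, a sensor of unfolded protein in the endoplasmic reticulum, had 3 against 0 and, between pc-BMACs and immature B cells, 5 against 1. Ern1, the sensor that splices Xbp1 mRNA, had 2 against 0 and 8 against 1 in the same comparisons. The balance lay with pc-BMACs in these 4, which were named for their many group-only regions, so no shared function is read from them. Other secretory genes of the list had few or no group-only regions between pc-BMACs and plasma cells, given here in that order. Derl3 and Ckap4 had 1 and 0, and Edem1, Fkbp11, Hsp90b1 and Mzb1 had 0 and 0. Sec24d had 1 and 1, and Lman1 had 0 and 1.

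Other genes of the list had regions in both directions or none. Prdm1, the repressor that drives plasma cell differentiation, had 4 pc-BMAC-only regions against 2 of plasma cells, and 4 against 6 between pc-BMACs and immature B cells. Cxcr4, a chemokine receptor gene, had 1 against 2 and, between pc-BMACs and immature B cells, 1 against 7. Between pc-BMACs and plasma cells Irf4, a factor required for plasma cells, had 1 and 1, Sdc1, which encodes CD138, had 0 and 2, and Xbp1, which drives the secretory programme, and Tnfrsf13b, which encodes TACI, had 0 and 0. Between plasma cells and immature B cells, Ern1 had 5 plasma-cell-only and 2 immature-B-only regions, Atf6 had 4 and 0, the surface protein gene Cd9 had 4 and 0, and the costimulatory receptor gene Cd28 had 4 and 2. Prdm1 had 1 and 4 there, and Cd93, a surface receptor of early B cells and long-lived plasma cells, had 0 and 4.

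The relatives of the members were followed in a second list of 18 genes, including other poly(A) polymerases, other BTB zinc finger genes and Fndc3a. All had a region. Against immature B cells, 15 of 122 regions (12.3%) were pc-BMAC-only and 34 (27.9%) immature-B-only, where 10.3% and 24.1% of all regions were. Between plasma cells and immature B cells, 12 of 119 (10.1%) and 25 (21.0%) were group-only, against 6.35% and 19.0%. Between pc-BMACs and plasma cells, pc-BMAC-only regions prevailed at 1 gene and plasma-cell-only regions at 2, with equal numbers at 15. Over all genes with a region these shares were 14.3% and 15.5%. The 1 gene was Fndc3a, the paralogue of Fndc3b, with 16 and 15 of 25 regions called in the pc-BMACs, 9 and 9 in the plasma cells, and 16 and 11 in the immature B cells. Its immature B cell counts overlapped those of pc-BMACs, which those of Fndc3b did not. The paralogues of Tent5c had few regions, with 4 at Tent5a, 3 at Tent5b and 1 at Tent5d, and none of these was called in one of pc-BMACs and plasma cells only. Among BTB zinc finger genes, Zbtb38 had 15 and 14 of 18 regions called in the pc-BMACs, 15 and 12 in the plasma cells, and 11 and 9 in the immature B cells. Zbtb18 had 5 and 4 of 19 in the pc-BMACs, 6 and 6 in the plasma cells, and 19 and 16 in the immature B cells.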

How the data were processed

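ATAC-seq was made from 3 sorted populations with 2 libraries each. What the authors deposited for each library is a single list of peaks without read counts. The submitters' processing notes mention Bowtie2 2.3.3, HOMER 4.10, bedtools and mm10 but no roles. How peaks were called and filtered, and at which threshold, is not given in the sources used here. In each list the deposited score column holds 1000 in every row, so it was not used, and only the presence and span of peaks were compared.

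Peaks were merged at an overlap of at least 1 bp (Python 3.11, pandas 2.3.3, numpy 2.4.6, figures with matplotlib 3.10.9), and each region went to the closest interval of a protein-coding gene within 100 kb in a RefSeq table of GRCm38.p6. A region touching several genes went to the gene it overlapped most, then to the shortest; no member region was tied. Of 69171 regions 65360 were assigned, to 15192 of 21883 genes. Group-only means called in both libraries of one population and neither of the other. Merging, calling and assignment were tested on simulated peaks. No test across regions was run: the members and gene lists were chosen with earlier results of these data known. Named by the rule written for them are all Tent5c regions and, at the other genes, those called in both libraries of 1 population and no library of another and those within 1 kb of a gene end; the remaining regions called in all 6 lists and some split regions were added after their values were seen. List genes are those with the most group-only regions per comparison and Prdm1, Xbp1, Irf4, Sdc1 and Tnfrsf13b. Alternatives were a cover of at least 50%, the widest 34070 peaks of each list, a limit of 10 kb, merging up to 200 bp apart, leaving out each library, and pairs sharing an R number in their descriptions. Sequences are RefSeq's (GRCm38.p6); all 3 genes were matched.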

Additional observations from a re-analysis of the deposited data

How the results depend on the processing

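No paired analysis was possible because the results come from no test, and the replicate numbers of the titles and the R numbers of the descriptions pair different libraries. As a stand-in for a replicate block, the 1 pair of libraries per comparison that shares an R number was compared. Called in one library and not in the other were then 15 regions for pc-BMACs and 4 for plasma cells between these, 52 for pc-BMACs and 9 for immature B cells, and 24 for plasma cells and 5 for immature B cells.

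Under a rule that asked for peaks over at least 50% of a region, 19 regions were pc-BMAC-only against plasma cells (12 as reported) and 12 were plasma-cell-only against immature B cells (21 as reported). A merged region is at least as wide as its widest peak, so a library with narrower peaks can lose calls under this rule. Zbtb20's net of plasma-cell-only over immature-B-only regions reversed to -1 there, and also without immature B cells 2. With the widest 34070 peaks of each list, immature-B-only regions fell to 1 against pc-BMACs and 2 against plasma cells. Leaving out each library in turn gave 13 to 28 pc-BMAC-only and 1 to 3 plasma-cell-only regions between these populations. It gave 33 to 50 pc-BMAC-only and 3 to 8 immature-B-only regions, and 22 to 25 plasma-cell-only and 4 to 9 immature-B-only regions. In all these settings each comparison kept more regions on the pc-BMAC side, or on the plasma cell side against immature B cells, over the 3 genes together. The shares over all regions under these settings are not given, and the genes were chosen on these calls. The kept direction is therefore a description. Within 10 kb of the gene, Tent5c held 0 pc-BMAC-only regions against plasma cells (1 as reported) and 3 against immature B cells (7 as reported), and the counts over the 3 genes stayed within 1.5 times those reported. The rank of Tent5c over genes of any length was 158 and 230 in the pc-BMACs and 476 and 711 in the plasma cells. Depth is unknown, so a missing peak may reflect depth, and this was not tested.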

Other observations

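Other genes had shares of called regions like those of the members. Likeness was the Euclidean distance between the 6 shares of a gene's regions called per library, over the 2254 genes with at least 8 regions, and nothing about function follows from it. Nearest to Fndc3b was Rabgef1, with a distance of 0.14 over 8 regions, followed by Ell2 with 0.161 over 19 regions, against a median distance of 0.873. Ell2 had 16 and 14 regions in the pc-BMACs, 10 and 7 in the plasma cells, and 5 and 4 in the immature B cells. Znrf3, Cpeb3 and Rhob came next, at 0.19 to 0.198. Cpeb3, which encodes a protein that binds the cytoplasmic polyadenylation element of mRNAs, had 24 and 20 of 27 regions in the pc-BMACs, 11 and 13 in the plasma cells, and 8 and 9 in the immature B cells.

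Nearest to Zbtb20 were Cnst, Rap1gap2, Jmjd1c, Nrp2 and Gpr55, at distances of 0.114 to 0.147 against a median of 0.659. Nearest to Tent5c was Ctnnbl1, at 0.134 over 8 regions, followed by Tram2, Ralgapa2, Tbcd and Ptpn11 at 0.224 to 0.25, against a median of 0.885. Tram2, which encodes a translocation-associated membrane protein of the endoplasmic reticulum, had 11 and 9 of 13 regions in the pc-BMACs, 8 and 8 in the plasma cells, and 4 and 3 in the immature B cells. The members were not one another's nearest genes. From Fndc3b, Zbtb20 was at place 40 and Tent5c at place 113.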
